A study of Mus musculus with 40 samples.

Results

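The transcripts of the proteasome, the protease that degrades ubiquitin-tagged proteins, were followed in the left somatomotor cortex of 3xTg-AD mice after closed-head injury (CHI). Members were the mouse genes whose symbol is Psm, a letter from a to g and a number, without named pseudogenes, and with at least 10 counts in at least 35 of 39 samples. The symbol pattern found 54 names, of which 4 were pseudogenes, and 48 of the remaining 50 reached the count minimum. These 48 were among 15224 genes tested and 55536 mouse genes listed. The counts of Psma8, an alpha subunit known from testis, had a median of 4 and a highest value of 9, and those of Psmb11, a beta subunit known from the thymus, had a median of 2 and a highest value of 8, so both were left out. Of the 48 members, 47 encode subunits, regulators or assembly chaperones, and Psmc3ip shares only the symbol: it encodes a cofactor of meiotic recombination.

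The proteasome core, called 20S, is a barrel in which rings of alpha subunits (Psma) close the ends and rings of beta subunits (Psmb) form the inner chamber. Psmb5, Psmb6 and Psmb7 are the constitutive catalytic subunits, cutting after hydrophobic, acidic and basic residues. Interferon-gamma is known to induce Psmb8, Psmb9 and Psmb10, which take the places of Psmb5, Psmb6 and Psmb7 to form the immunoproteasome, a source of peptides for MHC class I. The 19S regulatory particle caps the barrel, with a ring of ATPases (Psmc) that unfold the substrate and non-ATPase subunits (Psmd) that bind and remove ubiquitin. PA28 (Psme1 and Psme2) is a different cap that opens the barrel without ubiquitin. In neurons the proteasome is known for turning over synaptic proteins, and in microglia the immunoproteasome is known to follow inflammatory activation.

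All mice were female, 2 to 4 months old and of the 3xTg-AD line on a C57BL/6J background, which carries mutant human APP and MAPT (tau) under a neuronal promoter, so no group was free of these transgenes. Injury was a weight drop onto the intact skull of the anesthetized mouse, given once daily. The 10 mice of 1xCHI, the 9 used of 3xCHI and the 10 of 5xCHI were sampled 30 min, 4 h or 24 h after the last injury, and the 3 mice each of 2xCHI and 4xCHI at 24 h. The 4 sham-injured mice had anesthesia without injury, and shams of different numbers of exposures and times form this 1 group. Sample 30 (3xCHI, 4 h) was left out of every comparison. Each sample was the bulk tissue of 1 mouse, in which fewer cells of a type and less RNA per cell cannot be told apart.

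Total counts ran from 15926004 to 27859550 per sample (median 19028776), and the 48 members took between 0.267% and 0.360% of them. Summed neuronal markers ranged from 7148 to 12811 CPM (counts scaled to library size with edgeR's TMM factors) in 5xCHI against 10613 to 12239 in sham-injured cortex, so neuronal transcripts, the main mark of the labelled tissue, were present in every sample. Markers of T cells were under the count minimum for 3 of 3 genes. Summed microglial markers lay between 339 and 383 CPM in sham-injured, 293 and 407 in 1xCHI and 356 and 1141 in 5xCHI samples. Of the samples used, 18 were numbered 1 to 18 and 21 were numbered 19 to 40. The labels name no batch, and the range held 1 sham-injured sample below 19 and 3 above.

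Per kilobase of transcript, the constitutive catalytic subunits stood above their interferon-inducible counterparts. The median level was highest for the ATPase Psmc5, at 102 CPM per kb, and the 3 constitutive catalytic subunits lay close together at 80.0 (Psmb6), 73.4 (Psmb7) and 73.3 (Psmb5) CPM per kb. Among structural beta subunits the median ran from 38.3 CPM per kb for Psmb2 to 86.9 for Psmb4, and among alpha subunits from 19.5 for Psma3 to 62.5 for Psma6. ATPases reached down to 33.3 CPM per kb (Psmc6), and non-ATPase subunits ran from 21.5 (Psmd11, a scaffold of the lid) to 65.0 (Psmd2, a ubiquitin-receptor scaffold of the base). The 31 constitutive 20S and 19S subunits thus lay between 19.5 and 102 CPM per kb.

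Of the regulators, some lay within the constitutive range per kilobase, and the chaperones lay below it. Psme1 stood at 21.3 and Psme2 at 16.8 CPM per kb, and Psme2b, an intronless copy of Psme2 that shares reads with it, at 2.18, a value that the read assignment makes uncertain. Psme3, which encodes the nuclear PA28 gamma cap, reached 33.7 CPM per kb and the inhibitor Psmf1 8.01. The chaperones, which guide assembly of the rings, lay between 6.88 (Psmg4) and 10.1 (Psmd10). Psmc3ip was at 1.20.

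The 3 immunoproteasome subunits did not share a level. The median was 21.2 CPM per kb for Psmb10, 1.84 for Psmb8 and 0.805 for Psmb9, the lowest of the 48. In counts, Psmb9 had a median of 21 and ranged from 8 to 45, Psmb8 ranged from 29 to 236, and Psmb10 from 388 to 923, so Psmb9 rests on few reads in every sample. The ratio of Psmb5 to Psmb8 per kb ranged from 33.8 to 36.9 in the 4 sham-injured samples, from 21.2 to 67.9 in 1xCHI and from 12.9 to 65.3 in 5xCHI samples. The ratio of Psmb7 to Psmb10 stayed between 2.87 and 4.00 over all 39 samples. Psmb10 thus reached the level of the least abundant constitutive subunits, and Psmb8 and Psmb9 lay far below it.

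The promoters of the constitutive subunits Psmb5 and Psmb6 and of their counterparts Psmb8 and Psmb9 are shown because these counterparts are compared throughout and differed in level and in how they varied between samples. Each is the 250 bases before the start of the RefSeq gene in GRCm38.p6, 5′ to 3′ on the gene's strand. Capitals mark a match to a searched motif. In Psmb5 (chr14:54617996-54618245, minus strand) and Psmb6 (chr11:70525107-70525356, plus strand) it is the antioxidant response element TGACNNNGC, 47 to 39 and 9 to 1 bases before the start. In Psmb8 (chr17:34197945-34198194, plus strand) it is the gamma-activated sequence TTCNNNGAA, 97 to 89 bases before the start. In Psmb9 (chr17:34187331-34187580, minus strand) it is a CCAAT box, read on the opposite strand, 8 to 4 bases before the start. Psmb8 and Psmb9 lie together in the MHC region of the chromosome.
Psmb5: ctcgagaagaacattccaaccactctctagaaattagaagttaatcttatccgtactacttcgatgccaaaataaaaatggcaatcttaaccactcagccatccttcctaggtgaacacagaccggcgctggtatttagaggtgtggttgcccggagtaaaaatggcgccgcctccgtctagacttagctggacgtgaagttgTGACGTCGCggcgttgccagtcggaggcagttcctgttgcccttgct
Psmb6: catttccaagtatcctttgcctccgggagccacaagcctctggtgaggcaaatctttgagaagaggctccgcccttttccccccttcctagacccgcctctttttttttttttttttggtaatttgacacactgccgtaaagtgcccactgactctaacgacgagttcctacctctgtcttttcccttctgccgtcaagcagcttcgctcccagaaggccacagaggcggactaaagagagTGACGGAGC
Psmb8: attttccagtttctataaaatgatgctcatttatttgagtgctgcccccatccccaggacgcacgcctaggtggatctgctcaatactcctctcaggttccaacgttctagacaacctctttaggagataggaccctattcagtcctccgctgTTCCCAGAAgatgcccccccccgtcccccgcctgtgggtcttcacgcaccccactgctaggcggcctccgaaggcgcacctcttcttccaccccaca
Psmb9: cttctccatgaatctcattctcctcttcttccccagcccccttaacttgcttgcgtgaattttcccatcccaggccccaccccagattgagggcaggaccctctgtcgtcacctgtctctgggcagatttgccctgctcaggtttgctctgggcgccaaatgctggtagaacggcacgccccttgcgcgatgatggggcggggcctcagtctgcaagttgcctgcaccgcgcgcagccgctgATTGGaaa

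Motifs were searched on both strands of the 250 bases in 44 RefSeq promoters, which belonged to 41 of the 48 members. The antioxidant response element TGACNNNGC stood in 11.4% of the 44 member promoters and in 10.2% of all 32851 promoters, and the members with it were Psmb5, Psmb6, Psmc6, Psmd12 and Psmd9. The interferon-stimulated response element (GAAA, any 2 bases, GAAA) stood in 6.82% against 2.98% of all promoters (Psmb3, Psmd4 and Psmd9). The gamma-activated sequence TTCNNNGAA stood in 4.55% against 7.02% (Psmb8 and Psmg1), and CCAAT in 31.8% against 33.8%. These letters are descriptions of the windows and not binding sites.

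Whether a first injury moved the proteasome was asked by comparing 1xCHI with sham-injured cortex over all times. Values of the constitutive core and PA28 were higher in 1xCHI, with a log2 fold change of about 0.2 to 0.4 for most of these subunits and 0.07 for the alpha subunit Psma6. Most 19S non-ATPase subunits were near 0, and Psmb8 and Psmb9 were at -0.07 and -0.41 with wide errors. No member passed an adjusted p of 0.05 in edgeR's quasi-likelihood test (0 of 48, with 0% of all 15224 genes called), and DESeq2 called 0 as well. At an unadjusted p under 0.05 edgeR had 21 of 48 members higher (43.8%), against 10.9% of all genes, and 0 lower. The members' median log2 fold change was 0.17, beside 0.01 over all genes tested, and 42 of 48 were above 0.

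By subcomplex, members higher at an unadjusted p under 0.05 were 6 of 7 alpha, 4 of 4 structural beta and 3 of 3 constitutive catalytic subunits, with median log2 fold changes of 0.22, 0.28 and 0.26. Of the ATPases 3 of 6 were higher (median 0.14), and of the 19S non-ATPase subunits 0 of 11 (median 0.04). PA28 had 2 of 3 (median 0.37), the assembly chaperones 2 of 7 (median 0.18), and Psme3, Psme4 and Psmf1 0 of 3 (median -0.09). Of the immunoproteasome subunits 0 of 3 were higher, with a median of -0.07. The medians of the 20S core thus lay above that of the 19S non-ATPase subunits. This difference was not tested, and it narrowed with the length trend removed, as given below.

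**Figure D1:**
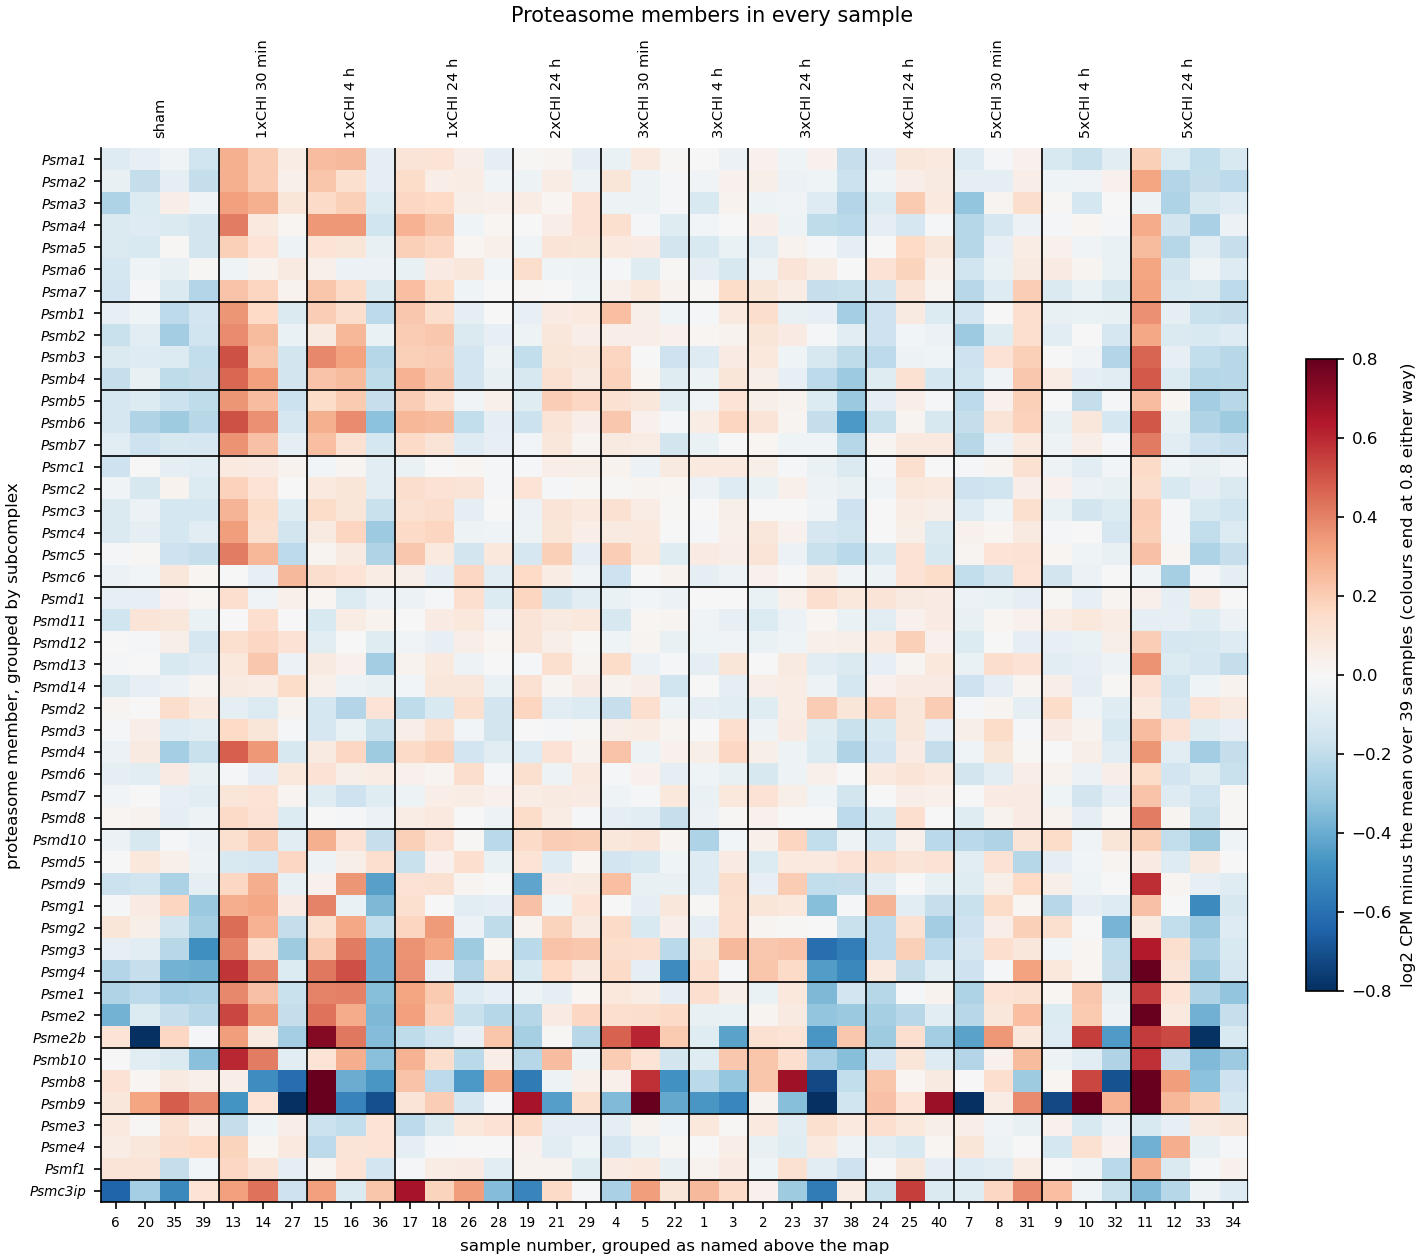
Level of each of the 48 members (rows, by subcomplex) in each of the 39 samples (columns, by number of injuries and time), as log2 CPM minus the member's mean over the 39 samples, with colours ending at 0.8 either way. Alpha and beta rows are high together in several 1xCHI samples and in sample 11 (5xCHI, 24 h), and Psmb8 and Psmb9 follow another order.

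Psmb6, the caspase-like subunit, shows the pattern of the core sample by sample. Its level was 58.5, 54.4, 52.7 and 55.1 CPM in the sham-injured samples 6, 20, 35 and 39. It was 91.5, 82.9 and 58.5 CPM at 30 min after 1xCHI, 78.3, 83.5 and 51.1 at 4 h, and 77.2, 76.7, 56.1 and 61.2 at 24 h. The 1xCHI samples numbered 13 to 18 were all above the highest sham, and of those numbered 26, 27, 28 and 36 the first 3 lay within the sham range or just above it and sample 36 lay below it. The log2 fold change was 0.38 ± 0.13 (SE, adjusted p = 0.223, edgeR).

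Psmb5, the chymotrypsin-like subunit, ranged from 57.2 to 61.0 CPM in sham-injured samples, from 72.1 to 84.1 in 1xCHI samples numbered to 18 and from 57.7 to 67.6 in the later-numbered ones (log2 fold change 0.26 ± 0.09, SE, adjusted p = 0.232, edgeR). Psmb7, the trypsin-like subunit, ranged from 77.0 to 81.4 CPM in sham-injured, 92.7 to 110 in the first and 78.0 to 82.2 in the second set of 1xCHI samples (0.22 ± 0.09, adjusted p = 0.242, edgeR). For both genes the 6 lower-numbered 1xCHI samples stood above all 4 sham-injured samples. Of the 4 higher-numbered ones, samples 26 and 28 were above the sham range for Psmb5, at 64.6 and 67.6 CPM, and samples 27 and 36 within it. Exact two-sided permutation tests of mean log2 CPM gave p = 0.0250 for Psmb5, 0.0390 for Psmb6 and 0.0310 for Psmb7, all with an adjusted p of 0.168 or more over the 24 such tests run on 8 genes.

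**Figure D2:**
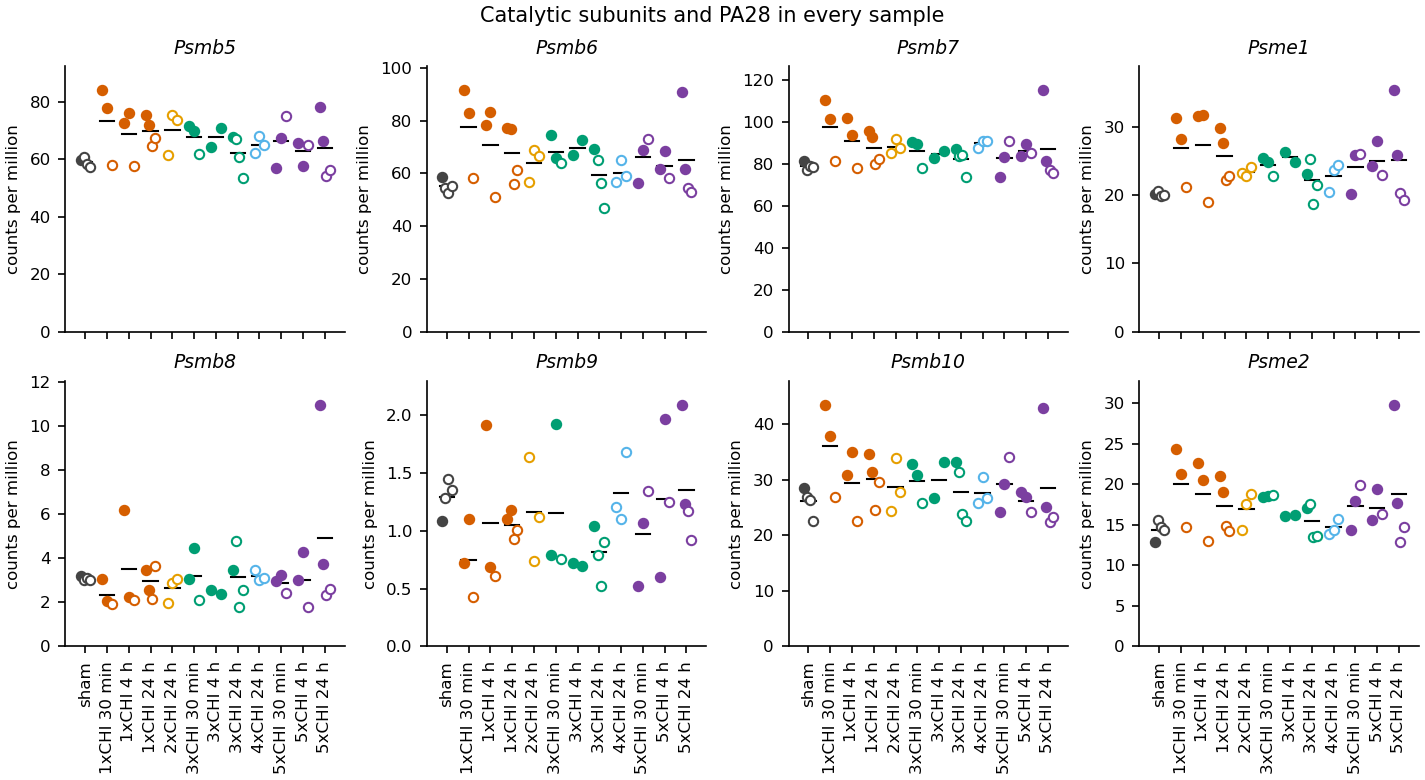
CPM (y axes, from 0) of the constitutive catalytic subunits and Psme1 (top) and of the immunoproteasome subunits and Psme2 (bottom) by group (x axis). Each point is a sample, filled for samples 1 to 18 and open for 19 to 40, and short lines are group means. Filled 1xCHI points lie above the sham-injured samples for Psmb5, Psmb6, Psmb7, Psmb10, Psme1 and Psme2, and sample 11 stands out at 24 h after 5xCHI.

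The member with the smallest p was Psmb2, a structural beta subunit. It stood between 27.6 and 31.5 CPM in sham-injured samples and between 30.8 and 43.5 in 1xCHI samples, of which 9 of 10 exceeded the highest sham. The log2 fold change was 0.29 ± 0.08 (SE, adjusted p = 0.221, edgeR). Of the alpha subunits, which gate the barrel, the shift was 0.23 ± 0.07 for Psma2, 0.28 ± 0.09 for Psma4 and 0.21 ± 0.06 for Psma1, each with an adjusted p of 0.221 in edgeR.

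PA28 carried the largest shift among subunit groups. Psme1 was at 19.8 to 20.6 CPM in sham-injured samples, at 27.6 to 31.6 in 1xCHI samples numbered to 18 and at 18.9 to 22.8 in the others (log2 fold change 0.39 ± 0.13, SE, adjusted p = 0.221, edgeR). Psme2, its partner in the ring, was at 12.9 to 15.6 CPM in sham-injured, 19.0 to 24.3 and 13.0 to 14.8 CPM in the same sets of 1xCHI samples (0.37 ± 0.16, adjusted p = 0.260, edgeR). The sets did not overlap each other for either gene. Psme3, the nuclear cap, lay the other way, with a mean of 92.0 ± 3.17 CPM (SD, n = 4) in sham-injured and 85.1 ± 8.06 (SD, n = 10) in 1xCHI samples, ranges that overlapped.

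The immunoproteasome subunits split. Psmb10 followed the core, with 22.6 to 28.5 CPM in sham-injured, 30.8 to 43.4 in the lower-numbered and 22.7 to 29.6 in the higher-numbered 1xCHI samples (log2 fold change 0.28 ± 0.15, SE, adjusted p = 0.310, edgeR). Psmb8 was at 3.21, 2.99, 3.11 and 3.04 CPM in sham-injured samples, and in 1xCHI its lowest, median and highest values were 1.92, 2.39 and 6.20 (-0.07 ± 0.33, adjusted p = 0.913, edgeR). The highest was sample 15 (4 h), and 6 of 10 samples were below every sham. Psmb9 was at 1.09 to 1.45 CPM in sham-injured samples and had a lowest, median and highest value of 0.426, 0.968 and 1.91 in 1xCHI (-0.41 ± 0.31, adjusted p = 0.439, edgeR). Sample 15 was again the highest. With standard errors of about 0.3, shifts of the size seen in the core could not be told from 0 for Psmb8 and Psmb9 at these counts.

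The higher values of the core after 1xCHI lay in the lower number range. The summed level of the 31 constitutive 20S and 19S subunits was 2464 ± 39.6 CPM (SD, n = 4) in sham-injured and 2694 ± 182 (SD, n = 10) in 1xCHI samples. It was 2812 ± 115 CPM in the 6 1xCHI samples numbered to 18 and 2517 ± 85.6 in the 4 numbered from 19, where the sham-injured samples stood at 2467 ± 47.6 (SD, n = 3). With only samples 19 to 40 (an alternative chosen after the data were seen), 0 of 48 members were higher at an unadjusted p under 0.05 beside 1.95% of all genes, and the medians were 0.07 for the alpha and 0.07 for the constitutive catalytic subunits and -0.31 for the immunoproteasome subunits. The only sham-injured sample below 19, sample 6, stood at 2453 CPM, so a value within samples 1 to 18 rests on 1 control. The mitochondrial share of counts was 8.19% to 10.3% in the 6 lower-numbered 1xCHI samples, 6.25% to 8.41% in the 4 others and 6.09% to 6.89% in sham-injured samples, and its part in the core's values was not tested.

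Transcript length moved with the shift. Over the 48 members, the correlation of log2 fold change with log2 length was -0.58, and over 15215 genes it was -0.51 (genes are not independent and share the same libraries). Members up to 1000 bp had a median of 0.31 (n = 8) where all genes of that length had 0.34, those from 1000 to 1500 bp 0.18 (n = 17) against 0.19, and those from 1500 to 2500 bp 0.08 (n = 13) against 0.10. From 2500 to 4000 bp members had 0.02 (n = 8) against 0.00, with a highest value of 0.24. The medians of members were thus near those of transcripts of their length, while single members were not. With the trend of counts on length removed from each sample, the median over members was 0.01, the alpha, structural and constitutive catalytic medians were 0.03, 0.05 and 0.01, and 5 members (10.4%) were higher at an unadjusted p under 0.05 beside 6.22% of all genes. The alpha subunits Psma2 and Psma3 were then at 0.22 ± 0.06 and 0.20 ± 0.07 (SE, adjusted p = 0.473 for both, edgeR), and the other 3 were Psme1, Psmd9 and Psmb1.

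The trend can be given per sample as the slope of log2 counts on log2 length over genes, each gene taken against its mean. It ran from 0.036 to 0.117 in sham-injured samples, from -0.199 to -0.073 in the 1xCHI samples numbered to 18 and from 0.006 to 0.138 in those numbered from 19. Over the 39 samples, which share the gene set and its scaling, the correlation of this slope with the mean log2 CPM of the 31 constitutive subunits was -0.88, and it was -0.95 within samples 1 to 18 (n = 18) and -0.84 within 19 to 40 (n = 21). It was -0.96 for Psmb6, -0.89 for Psmb10 and -0.90 for Psme1, but -0.45 for Psmb8, -0.16 for Psmb9 and 0.76 for Psme3. The part of length in the 1xCHI shift was not tested beyond removing the trend.

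**Figure D3:**
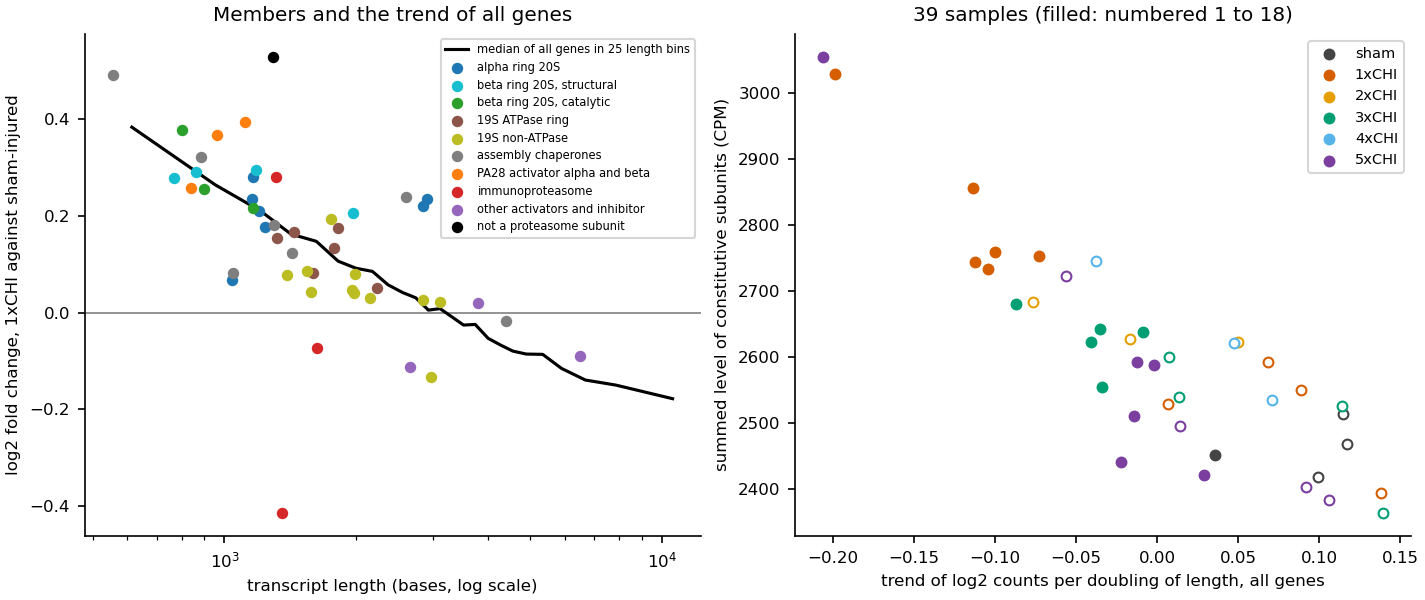
Left, log2 fold change of 1xCHI against sham-injured for the 48 members (points) against transcript length (log axis, bp), with a line for the median of all genes in 25 length bins. Right, summed CPM of the 31 constitutive subunits (y axis) against the per-sample slope of log2 counts per doubling of length (x axis), 39 samples, filled for 1 to 18. Short members lie high on the left as other short genes do, and samples with the steepest negative slopes have the highest sums.

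Split by time, 25 of 48 members were higher at 30 min after 1xCHI at an unadjusted p under 0.05, against 13% of all genes. At 4 h it was 8 of 48 against 6.95% of all genes, and at 24 h 10 of 48 against 3.55%. No member was called in edgeR at any of these times (0% of genes called at each). The member medians were 0.22, 0.14 and 0.14. These 3 comparisons share the 4 sham-injured samples, and the differences between them were not tested as such.

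At 30 min all 3 constitutive catalytic and all 4 structural beta subunits were higher at an unadjusted p under 0.05, with 5 of 7 alpha subunits, 5 of 6 ATPases and 3 of 11 non-ATPase subunits. The values closest to a call were Psmb2 at 0.38 ± 0.11 and Psma3 at 0.32 ± 0.09 (SE, both adjusted p = 0.167, edgeR), and Psmb6 stood at 0.49 ± 0.17 (adjusted p = 0.172). Psmb10 was at 0.47 ± 0.19 (adjusted p = 0.196, edgeR) where Psmb9 was at -0.76 ± 0.42 (adjusted p = 0.293, edgeR) and Psmb8 at -0.39 ± 0.42. At 4 h the values nearest a call were Psma1 at 0.24 ± 0.08, Psma4 at 0.31 ± 0.11 and Psme1 at 0.44 ± 0.17 (adjusted p = 0.383 for Psme1, edgeR). At 24 h it was Psmc3ip, which is no subunit, at 0.56 ± 0.23 (adjusted p = 0.703, edgeR).

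Leaving out 1 sample moved these counts. At 30 min, 22 members were called higher without sample 27, together with 3601 of the 15224 genes, and 5 and 14 members were higher at an unadjusted p under 0.05 without samples 13 and 14 (2.24% and 7.25% of all genes). Without sample 13 the member median at 30 min was 0.13, below those of the later times, and without sample 27 it was 0.32. The median at 4 h ran from 0.074 (without sample 15) to 0.21 (without sample 36). That at 24 h ran from 0.0996 (without sample 17) to 0.17 (without sample 28). At 4 h, 3 members (Psme1, Psma1 and Psma4) were called without sample 36, with 579 genes in all, and 20 were then higher at an unadjusted p under 0.05, beside 14.4% of all genes. That count was 1 without sample 15 or 16 (3.83% and 3.17% of all genes), 4 without sample 35 and 5 without sample 39 (4.43% and 4.70%), the last pair being sham-injured. At 24 h it was 0 and 1 without samples 17 and 18 (1.79% and 1.61%), and 4, 5 and 2 without the sham-injured samples 6, 35 and 39 (3.67%, 1.99% and 2.50%). Samples 27 and 36 belong to the higher number range, and samples 13 to 18 to the lower.

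Whether further injuries moved the members was asked by comparing each number of injuries with sham-injured cortex. In edgeR no member was called after 2xCHI, 3xCHI, 4xCHI or 5xCHI (0% of genes called in each), and DESeq2 called 0. Higher at an unadjusted p under 0.05 were 2 of 48 after 2xCHI (2.33% of all genes), 1 after 3xCHI (2.26%), 2 after 4xCHI (0.663%) and 3 after 5xCHI (7.51%). Median log2 fold changes were 0.11, 0.06, 0.10 and 0.07, beside 0.00, 0.00, -0.01 and 0.01 over all genes. Between 36 and 45 of the 48 members were above 0 in each, in comparisons that share their control samples. These values moved with the processing. With the length trend removed the medians were 0.013, 0.029 and -0.0029 after 2xCHI, 4xCHI and 3xCHI and -0.025 after 5xCHI, and 33, 32, 23 and 15 members were above 0. After 5xCHI the median was 0.0097 without sample 11, and with a surrogate variable it was -0.0067 with 21 members above 0. The 2xCHI and 4xCHI samples were all numbered 19 to 40, and no order over the numbers of injuries can be read from these medians: with only samples 19 to 40 they were 0.04 after 1xCHI, 0.11 after 2xCHI and 0.10 after 4xCHI, and with the number ranges as a covariate 0.10, 0.14 and 0.11. The count after 2xCHI was 12 with that covariate (6.80% of all genes) and 0 to 4 with 1 sample left out (1.11% to 3.56%). For 3xCHI the latter range was 0 to 4 (1.45% to 3.35% of all genes). For 4xCHI it was 0 to 8 (0.617% to 1.23%), with the 8 found without sample 11 (1.08%).

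The members near the top of these comparisons were spread over the particle. After 2xCHI they were Psmb5 at 0.25 ± 0.12 and Psmd10, a chaperone of the base, at 0.24 ± 0.12 (SE). After 3xCHI it was Psmb2 at 0.20 ± 0.08, with 8 of 9 samples above the highest sham. After 4xCHI they were the alpha subunits Psma6 at 0.17 ± 0.08 and Psma5 at 0.18 ± 0.08. None of these had an adjusted p under 0.911 in edgeR.

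After 5xCHI the PA28 subunit Psme1 was at 0.30 ± 0.13 (adjusted p = 0.397, edgeR), with a mean of 24.8 ± 4.71 CPM (SD, n = 10) against 20.1 ± 0.369 (SD, n = 4). Psmg4, a chaperone of the alpha ring, was at 0.39 ± 0.18 and Psmd9, a chaperone of the base, at 0.24 ± 0.11 (SE). The constitutive catalytic subunits Psmb5, Psmb6 and Psmb7 were at 0.12 ± 0.09, 0.23 ± 0.13 and 0.12 ± 0.08, and Psme2 at 0.31 ± 0.16. With the length trend removed the values of Psmb5 and Psmb7 turned negative, as given in the last section. Without sample 11, 0 members were higher at an unadjusted p under 0.05 after 5xCHI, beside 4.36% of all genes, and without the sham-injured sample 35 the count was also 0 (3.98%).

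**Figure D4:**
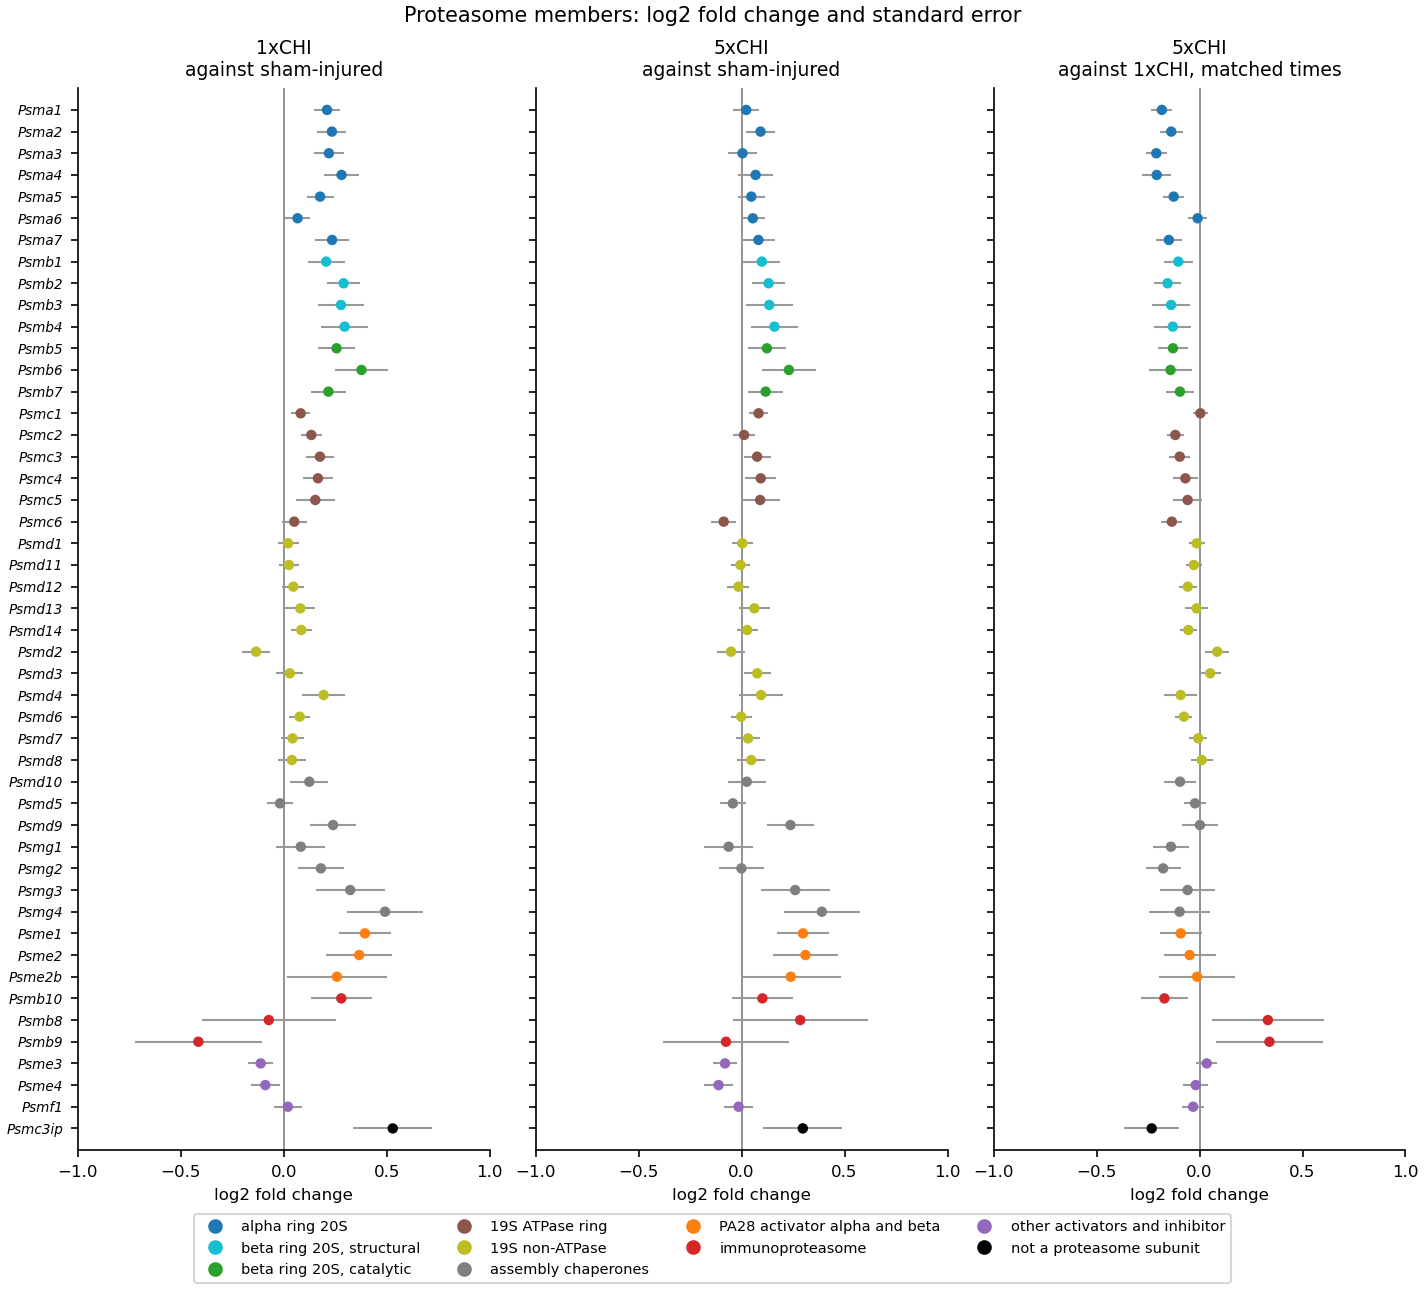
Log2 fold change of each member (points) with its standard error (bars) for 1xCHI against sham-injured, 5xCHI against sham-injured and 5xCHI against 1xCHI at matched times, coloured by subcomplex. Core subunits lie right of 0 in the first panel and most members lie left of 0 in the third, while Psmb8 and Psmb9 have the widest bars.

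Sample 11, taken 24 h after 5xCHI, carried the highest values of several members. Its Psmb8 level was 11.0 CPM, where the other 5xCHI samples ran from 1.81 to 4.29 (group mean 3.74 ± 2.63, SD, n = 10, against 3.09 ± 0.0956 in 4 sham-injured). The fitted log2 fold change of Psmb8 was 0.28 ± 0.33 (SE, adjusted p = 0.691, edgeR) and -0.072 without this sample. Psmb9 reached 2.09 CPM there, beside 0.522 to 1.97 CPM in the other 5xCHI samples, and its log2 fold change was -0.08 ± 0.31 (adjusted p = 0.919, edgeR). Psmb10 was at 0.10 ± 0.15. Its value turned negative with a surrogate variable, with the length trend removed and with the number ranges as a covariate.

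In the same sample Gfap, the intermediate filament of reactive astrocytes, was at 2410 CPM, C1qa, a microglial complement gene, at 140, and the MHC class I heavy chains H2-K1 and H2-D1 at 65.2 and 109. The part of more or different glia in its Psmb8 level was not tested. Sample 15 (1xCHI, 4 h), with 6.20 CPM of Psmb8, had H2-K1 at 46.0, B2m at 108 and Isg15, an interferon-induced ubiquitin-like protein, at 4.86 CPM, while Gfap was at 331 and C1qa at 38.0. In sham-injured samples H2-K1 was at 27.0 to 30.7, B2m at 69.4 to 76.0, Gfap at 124 to 174 and C1qa at 22.3 to 26.5 CPM. B2m was at 127 CPM in sample 11, and H2-D1 at 68.0 in sample 15. Samples 11 and 15 were thus above sham-injured for MHC class I and for glial genes, sample 11 further so for both. Isg15, at 2.51 CPM in sample 11, was higher in sample 15. In all, 11 of 35 injured samples exceeded the highest sham for Psmb8, and in 7 of these H2-K1 did as well. Samples below the lowest sham for Psmb8 numbered 6 of 10 in 1xCHI and 5 of 9 in 3xCHI, against 3 above the highest in each. In 5xCHI, 6 of 10 were below and 4 above. The 2xCHI group had 2 of 3 below and 0 above, and 4xCHI had 1 on each side. No group thus had more samples above the sham range than below it. Sample 10 (5xCHI, 4 h) had Gfap at 1627 and C1qa at 83.7 CPM with Psmb8 at 4.29, and samples 23 and 5 (3xCHI) had Psmb8 at 4.77 and 4.46.

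Psmb8 varied with the transcripts of antigen presentation more closely than with those of the core. Across 39 samples, which share scaling and cell mixture, its log2 CPM correlated with H2-K1 at 0.89, H2-D1 at 0.88, B2m at 0.82 and Tap1, the peptide transporter, at 0.67, and without sample 11 (n = 38) at 0.84, 0.80, 0.74 and 0.62. With C1qa it was 0.67 with and 0.43 without sample 11. Psmb9 gave 0.62 with H2-K1, 0.54 with H2-D1, 0.63 with B2m and 0.39 with Tap1. Psmb10 gave 0.31, 0.41, 0.50 and 0.05 with the same genes, and 0.91 with Psmb6.

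Likeness to the mean of the 31 constitutive subunits was measured for every gene by the same correlation over the 39 samples. Among members it was highest for Psmb4 (0.94), Psmb7 (0.93), Psmb1 (0.91), Psmc3 (0.91) and, from outside those subunits, Psmb10 (0.91). Each constitutive member was set against the mean of the others, while the median over all genes used the mean of all 31. Subcomplex medians were 0.84 for alpha, 0.90 for constitutive catalytic, 0.77 for ATPase and 0.54 for non-ATPase subunits, beside a median of 0.04 over all genes. Psme1 and Psme2 were both at 0.83 and at 0.90 with each other. Psmb8 stood at 0.34 and Psmb9 at 0.18, Psmd1 at 0.00, and Psmd2, Psme4 and Psme3 at -0.41, -0.42 and -0.64, so these 19S scaffolds and caps did not follow the core.

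The direct comparison of 5xCHI with 1xCHI at matched times, which uses no sham-injured sample, asked whether repeated injury left the members elsewhere than a first injury. Most members, the alpha subunits first, had lower values after 5xCHI than after 1xCHI, and none passed the threshold in the main edgeR fit. In edgeR 0 of 48 members were called against 0.532% of all genes (81 genes). At an unadjusted p under 0.05, 10 of 48 (20.8%) were lower against 7.27% of all genes, and 0 were higher. The median over members was -0.08 against 0.00 over all genes, and 40 of 48 were below 0. With 1 sample left out this median ran from -0.13 (without sample 11) to -0.051 (without sample 13). DESeq2 called 2 members and 429 genes in all. Without sample 11 the count of lower members was 22 (9.79% of all genes) and without sample 7 it was 6 (5.62%). In edgeR 1 member was called without sample 9, 11, 27, 31 or 32, with 37 to 285 genes in all, and 2 without sample 36, with 244 genes.

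Of the 10 members, 6 were alpha subunits (6 of 7, median -0.15), 2 were ATPases (Psmc2 and Psmc6), 1 was the structural beta subunit Psmb2 and 1 the chaperone Psmg2. The constitutive catalytic subunits were at -0.13, -0.14 and -0.10 for Psmb5, Psmb6 and Psmb7, with 0 of 3 at an unadjusted p under 0.05. Psmb8 and Psmb9 were at 0.33 ± 0.27 (SE, adjusted p = 0.592, edgeR) and 0.34 ± 0.26 (adjusted p = 0.561, edgeR), and Psmb10 at -0.17 ± 0.11. Psme1 and Psme2 were at -0.09 and -0.05.

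Psma3, an alpha subunit, was closest to a call. At 24 h it was 62.5, 62.2, 57.4 and 57.1 CPM in the 4 mice of 1xCHI and 54.0, 47.0, 51.0 and 51.7 in the 4 mice of 5xCHI. These did not overlap, and at 30 min (59.4 to 69.8 against 44.7 to 61.4 CPM) and 4 h (51.5 to 63.4 against 50.6 to 55.9) they did. The log2 fold change was -0.21 ± 0.05 (SE, adjusted p = 0.056, edgeR). It passed the threshold in 5 of 11 alternatives (adjusted p from 0.0071 to 0.221 over them) and when sample 9, 27, 31, 32 or 36 was left out. The fit with the length trend removed (adjusted p = 0.030, edgeR) and the fit with the number ranges as a covariate (adjusted p = 0.043, edgeR) were among them. Sham-injured mice were at 46.8 to 57.8 CPM, a range that holds the 4 5xCHI samples of 24 h and 3 of the 10 1xCHI samples.

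Psma1 had 63.9 to 74.8 CPM at 30 min after 1xCHI and 57.1 to 62.9 after 5xCHI, and 58.4 to 73.4 against 54.2 to 57.8 at 4 h, without overlap at either time. At 24 h the groups overlapped through sample 11, at 69.9 CPM. The log2 fold change was -0.18 ± 0.05 (SE, adjusted p = 0.0835, edgeR). Psma4 was at 57.7 to 75.9 against 48.7 to 55.2 CPM at 30 min and overlapped at 4 h and 24 h (-0.21 ± 0.07, adjusted p = 0.141, edgeR). The ATPases Psmc2 and Psmc6 followed at -0.12 ± 0.04 and -0.13 ± 0.05.

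Akirin2, which encodes a factor that carries the proteasome into the nucleus and is no member, fell in the same comparison. At 24 h its lowest and highest values were 48.7 and 62.2 CPM after 1xCHI and 43.9 and 47.4 after 5xCHI, without overlap. The groups overlapped at 30 min (54.7 to 72.5 against 42.0 to 58.5 CPM) and at 4 h (48.2 to 64.0 against 47.6 to 51.9). The log2 fold change was -0.28 ± 0.06 (SE, adjusted p = 0.042, edgeR). It stayed past the threshold in 8 of 11 alternatives and in 21 of 39 fits without 1 sample, with adjusted p from 0.0051 to 0.205. The comparison was fitted on 29 samples, so a fit without a sham-injured or other unused sample only repeats the main fit. Such repeats are among the 21 and do not test the call, which is therefore less stable than that count. The mean of Akirin2 was 48.4 ± 3.61 CPM (SD, n = 4) in sham-injured, 58.8 ± 7.64 (n = 10) in 1xCHI and 48.2 ± 5.01 (n = 10) in 5xCHI samples.

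**Figure D5:**
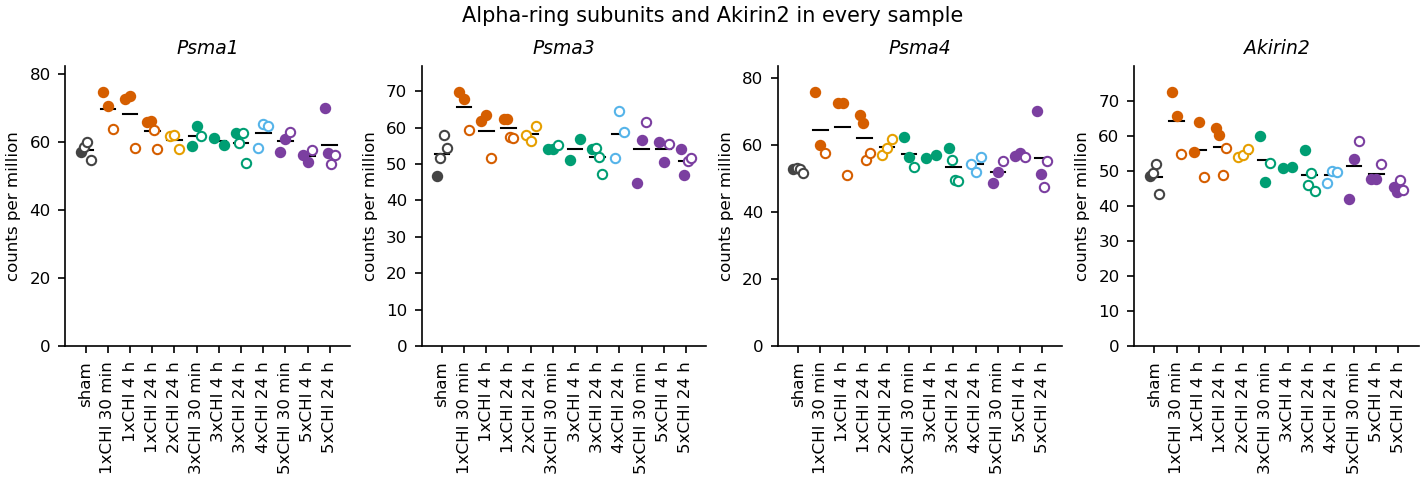
CPM (y axes) of Psma1, Psma3, Psma4 and Akirin2 by group (x axis), with 1 point per sample and short lines for group means. At 24 h the 1xCHI points of Psma3 (57.1 to 62.5 CPM) lie above those of 5xCHI (47.0 to 54.0), and Akirin2 has the same order.

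The 3xCHI samples also lay below 1xCHI at matched times. In edgeR 0 of 48 members and 0% of all genes were called, 5 of 48 were lower at an unadjusted p under 0.05 against 6% of all genes, and the median was -0.07 with 40 of 48 below 0. Those 5 were Psma3 (-0.20 ± 0.05, SE, adjusted p = 0.374), Psma4 (-0.19), Psma1 (-0.13), Psma5 (-0.11) and the ATPase Psmc2 (-0.09). Psma3 ran from 47.2 to 56.8 CPM in 3xCHI and from 51.5 to 69.8 in 1xCHI samples, ranges that overlap. The count of lower members was 9 without sample 11 (7.38% of all genes) and 9 without sample 36 (10.4%). It was 3 to 9 over all fits without 1 sample (3.70% to 10.4%) and 17 with the sample number as a covariate, where 13.8% of all genes were lower. Both comparisons share the 1xCHI samples, so the alpha subunits leading in each are not independent support.

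Time after injury, taken over 1xCHI, 3xCHI and 5xCHI together, left no member called. For any difference between 30 min, 4 h and 24 h edgeR called 0 of 48 members and 0.164% of all genes. The smallest unadjusted p among members was 0.064, for Psmd7 (adjusted p = 0.820, edgeR). The direct contrast of 30 min with 24 h called 0 members and 0.171% of genes, with a member median of 0.04, and that of 4 h with 24 h called 0 members and 0.00657% of genes, with a median of 0.00. Without sample 11 these medians were 0.08 and 0.04, and 9 members and 1 member were higher at an unadjusted p under 0.05, where none was with it. Of all genes, 8.11% and 3.52% were then higher, against 5.87% and 1.94% with it. Psma3 was at 0.10 ± 0.05 and Psmb8 at -0.35 ± 0.27 for 30 min against 24 h.

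Against the group sampled 24 h after the preceding injury, edgeR called 0 members and 0% of genes at each of the 3 times after 3xCHI (against 2xCHI) and after 5xCHI (against 4xCHI). At an unadjusted p under 0.05, 0, 1 and 1 members were lower after 3xCHI and 1, 0 and 3 after 5xCHI, and 0 were higher. Of all genes, 0.716%, 0.952% and 2.13% were lower in the 3xCHI comparisons. In the 5xCHI comparisons these shares were 2.85%, 1.81% and 2.17%. Without sample 11 the 5xCHI counts were 6, 3 and 11, beside 3.94%, 2.73% and 2.76% of all genes. With a surrogate variable they were 7, 11 and 8, beside 4.54%, 3.85% and 4.66%. With all samples and no such variable, the 3 at 24 h after 5xCHI were the lid subunits Psmd6 (-0.15 ± 0.07) and Psmd12 (-0.14 ± 0.07) and Psma3 (-0.19 ± 0.09). Member medians lay between -0.08 and -0.01, and single samples moved them: at 24 h after 5xCHI the median was 0.040 without sample 33 and -0.11 without sample 11. With the number ranges as a covariate it was -0.15 at 4 h after 3xCHI. Among the numbers of injuries at 24 h, edgeR called 0 members and 0% of genes for any difference. The smallest unadjusted p among members was 0.039, for Psma3 (adjusted p = 0.987, edgeR).

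Genes that work with the proteasome were followed in lists chosen with results of these data known. Of 25 other genes of the ubiquitin and proteasome pathway tested, edgeR called 0 after 1xCHI, with 6 higher and 3 lower at an unadjusted p under 0.05, beside 10.9% of all genes higher and 6.33% lower. Akirin2 at 0.28 ± 0.09 and Sem1, a small 19S lid subunit, at 0.43 ± 0.14 (SE, both adjusted p = 0.221, edgeR) stood above sham-injured, and Nploc4, a cofactor that delivers ubiquitylated proteins, below it at -0.16 ± 0.06 (adjusted p = 0.233, edgeR). Nfe2l1, the transcription factor known to restore proteasome genes when the particle is impaired, was at -0.22. In 5xCHI against 1xCHI, Akirin2 was the gene of this list that was called.

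Of 10 peptide-loading genes of MHC class I, 0 had an unadjusted p under 0.05 after 1xCHI and 1, Tapbp at 0.29, after 5xCHI. Of 12 interferon-response genes tested, 1 was higher at that level after 1xCHI (Isg15 at 1.00 ± 0.42, SE, adjusted p = 0.254, edgeR), 6 at 4 h after 1xCHI with a list median of 0.86, and 2 after 5xCHI (Irf8 at 0.71 and Irf1 at 0.32). Over all genes the shares higher in these comparisons were 10.9%, 6.95% and 7.51%. At 4 h after 1xCHI Psmb8 was at 0.19 ± 0.41 and Psmb9 at -0.27 ± 0.41. In 5xCHI against 1xCHI, 9 of 10 microglial markers were higher at an unadjusted p under 0.05 (median 0.57), where 7.94% of all genes were, beside which the immunoproteasome median was 0.33 with 0 of 3 at that level.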

How the data were processed

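RNA of 40 cortical samples, 1 per mouse, was sequenced, and the deposited table holds estimated counts per gene made for the authors by their sequencing provider. The layout is that of gene-level salmon output, and 11.0% of values above 0 are not whole. The processing notes name build mm10, and the version of the quantifier is not given in the sources used here. Transcript lengths were taken from GENCODE M21 (GRCm38). Whether the counts were scaled by transcript length is not given in the sources used here, which bears on levels per kb and on the length trend.

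Sample 30 was left out. The paper removed 1 sample as an outlier and lists 2 mice for 3xCHI at 4 h, without naming the sample. With sample 30 left out, 32807 genes had a count above 0, the number of non-zero features that the paper gives. Estimated counts were rounded to whole numbers. Genes with at least 10 counts in at least 35 of 39 samples were tested with edgeR 4.0.16 (R 4.3.3), with TMM scaling, quasi-likelihood F tests and Benjamini-Hochberg adjustment over 15224 genes, and called at an adjusted p under 0.05. The number of injuries (6 groups), its combination with time (12 groups) and an additive model of both (29 samples) were fitted. Groups were taken from the labels. Single genes were compared by exact two-sided permutation tests of log2 CPM (prior count 1), with adjustment over 24 tests. Alternatives used DESeq2 1.42.0, a surrogate variable (sva 3.50.0), other scalings, filters and sample sets, the sample number or its range as a covariate, and removal of each sample's length trend (loess, span 0.5). The 46 pairs of samples within a group differed by a chi-square of at least 6.85 per gene, beyond sampling noise. The fitting was tested on simulated data. Precision is limited by 2 to 4 mice per group and time.

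Named were the catalytic, immunoproteasome and PA28 subunits in every comparison, up to 5 members with the smallest p, members at the ends of each subcomplex's levels and members under the minimum. Of the other lists, genes called and the 3 with the smallest p after 1xCHI were named, and further genes were chosen after their values were seen. The members and lists were chosen with earlier results of these data known.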

Additional observations from a re-analysis of the deposited data

Results flagged for a closer look

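In 52 groups of 4 to 10 samples, 5 had an extreme sample whose gap to the nearest other exceeded Dixon's 95% critical value, which chance alone gives in about 1 of 20 groups. Of these, 4 were sample 11 (5xCHI, 24 h): Psmb7 at 115 CPM where the nearest other 5xCHI sample was at 90.9, Psmb8 at 11.0 CPM (nearest 4.29), Psme2 at 29.8 CPM (nearest 19.9) and the summed immunoproteasome subunits at 55.9 CPM (nearest 37.9). The fifth was sample 38 (3xCHI, 24 h), whose summed constitutive 20S and 19S level was 2364 CPM where the nearest other 3xCHI sample was at 2526. In sample 11 the length slope was -0.206, the most negative of the 5xCHI group, and Gfap and C1qa were at 2410 and 140 CPM. The part of either in these values was not tested.

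Sample 30 (3xCHI, 4 h), which entered no comparison, stood above the highest sham-injured sample for 4 of the 8 catalytic, immunoproteasome and PA28 genes when scaled by library size. Psmb5 was at 65.3 CPM (highest sham 61.4), Psmb6 at 61.6 (60.0), Psmb7 at 87.1 (83.5) and Psme1 at 21.1 (20.8). Psmb8, Psmb9, Psmb10 and Psme2, at 2.48, 0.714, 25.4 and 14.3 CPM, did not exceed it.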

How the results depend on the processing

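No paired analysis was possible because the labels number the samples from 1 to 40 and no number recurs between groups.

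After 1xCHI the 21 members higher at an unadjusted p under 0.05 (10.9% of all genes) became 7 with a surrogate variable (3.03% of all genes), 5 with the length trend removed (6.22%) and 0 with only samples 19 to 40 (1.95%). At 30 min the 25 (13% of all genes) became 10 with library size scaling (7.30%), 16 with the number ranges as a covariate (7.69%), 4 with a surrogate variable (3.61%) and 4 with the length trend removed (9.81%). At 4 h the 8 (6.95%) became 4, 2 and 2 under the last 3 of these (4.51%, 5.24% and 5.84%) and 3 with only the groups compared (3.93%), and at 24 h the 10 (3.55%) became 6, 2 and 1 under the same 3 (2.75%, 2.59% and 1.81%). In 5xCHI against 1xCHI the members called went from 0 to 2 with DESeq2 (429 genes called), 1 with its size factors (93), 1 with the number ranges as a covariate (167), 3 with a surrogate variable (871) and 2 with the length trend removed (195), and the 10 lower members (7.27% of all genes) became 5 with library size scaling (5.38%) and 6 with only the groups compared (5.35%). The cause was not tested.

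Leaving out 1 sample gave 16 to 24 higher members after 1xCHI (6.03% to 13.8% of all genes), 5 to 27 at 30 min (2.24% to 20.4%, with 0 to 22 members called), 1 to 20 at 4 h (3.17% to 14.4%, 0 to 3 called), 0 to 12 at 24 h (1.61% to 5.89%), and 6 to 22 lower members in 5xCHI against 1xCHI (5.58% to 9.93%, 0 to 2 called).

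Some log2 fold changes changed sign, among them Psme2, Psmb10 and Psmb5 after 1xCHI (0.37, 0.28 and 0.26) and Psmb8 after 5xCHI (0.28). With the length trend removed they were -0.0037 for Psmb5 after 1xCHI, -0.055 for Psmb5, -0.027 for Psmb7 and -0.032 for Psmb10 after 5xCHI, and 0.020 for Psme2 in 5xCHI against 1xCHI. With a surrogate variable they were -0.0065 for Psmb10 after 1xCHI, -0.11 for Psmb8 and -0.11 for Psmb10 after 5xCHI, and 0.025 for Psme2 in 5xCHI against 1xCHI. Psmb10 after 5xCHI was at -0.0025 with the number ranges as a covariate. Psmb8 after 5xCHI ranged from -0.072 (without sample 11) to 0.36 when 1 sample was left out and was at -0.40 with only samples 19 to 40, where Psme2 after 1xCHI was at -0.070. Differences in mean log2 CPM turned to -0.41 for Psmb8 after 5xCHI and -0.069 for Psme2 after 1xCHI within samples 19 to 40, and to 0.012 for Psmb9 after 5xCHI within samples 1 to 18.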
